A study of Mus musculus with 16 samples.

Results

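The small nuclear, nucleolar and Y RNAs are short noncoding RNAs that work in the nucleus and nucleolus, and 63 of their genes were measured among 19938 genes in colonic epithelial cells of C57BL/6 mice. Every gene with a probe set of its own was included if its name begins with Snord, Snora, Scarna, Rnu, Rny or Rprl followed by a digit. This rule was chosen with earlier results of these data known. The 63 genes comprised 31 Snord genes, 20 Snora genes, 3 Scarna genes, 5 Rnu genes, 2 Rny genes and 2 Rprl genes, from 69 probe sets. RNA pooled from 3 mice was hybridised to each of 16 whole-transcript arrays, 2 arrays and 6 mice in each of 8 groups. Passive SIgA means that the dam was Pigr+/- and passed secretory IgA on in her milk, and its absence that the dam was Pigr-/-. Active SIgA means that the offspring was Pigr+/- and could carry its own IgA across the epithelium, and its absence that the offspring was Pigr-/-. The groups thus had passive and active SIgA, passive only, active only or neither, and each was left untreated or drank water with 2% dextran sulfate sodium (DSS), a polymer toxic to the epithelial lining of the colon, over 8 days. All mice were gender-matched and 70 days old, and Pigr, the polymeric immunoglobulin receptor, was altered in the germline. Dam genotype was a property of the litter, so passive SIgA and other differences between the litters of Pigr+/- and Pigr-/- dams cannot be told apart.

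Box C/D small nucleolar RNAs (Snord) guide the methylation of ribose in ribosomal RNA, and box H/ACA RNAs (Snora) guide the conversion of uridine to pseudouridine. A few of each kind instead direct cleavage of the ribosomal RNA precursor. Small Cajal body RNAs (Scarna) guide the same changes in spliceosomal RNAs, the U RNAs (Rnu) form the core of the splicing machinery, and Y RNAs (Rny) bind the Ro60 protein. Rprl genes are related to the RNA of ribonuclease P, the enzyme that trims the leader of transfer RNAs. Most mammalian nucleolar RNAs are cut out of the introns of longer genes, and many of those genes encode ribosomal proteins.

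Values were log2 intensities, and a difference of 1 is a doubling of intensity. Levels of different probe sets are not comparable, so only differences of 1 gene between arrays are described. The 14 epithelial marker genes had mean levels of 12.23 to 12.56 on every array, and leukocyte markers 6.12 to 6.86. Both arrays of untreated mice with passive and active SIgA stood apart. The mean of 1268 chemosensory receptor and keratin-associated genes was 5.26 and 5.41 on them and 4.45 to 4.87 on the other 14. The replicate 1 array of untreated mice with active SIgA only lay beside them on the first principal component (-32.2, against -33.5 and -35.2, and -5.5 to 27.4 for the rest). Results are therefore also given without these arrays.

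Without passive SIgA the small RNAs as a group were higher. Averaged over the 4 matched pairs of groups (8 arrays without against 8 with), limma called 30 of the 63 genes higher and 0 lower (adjusted p under 0.05), where it called 0.326% of all 19938 genes higher and 0.637% lower. These 30 were among 65 genes of any kind that were higher. The median difference was 0.45 log2 for the small RNAs and 0.01 for all genes, and 60 of 63 small RNAs stood above 0. The differences ran from -0.24 for Scarna8 to 1.08 for Snord118. The mean over the 63 genes was 8.63 to 9.27 on single arrays with passive SIgA (median 8.85) and 9.12 to 9.48 on those without (median 9.30). The arrays of the 2 conditions overlapped. Untreated mice with passive SIgA only had means of 9.13 and 9.27, higher than the other 6 arrays with passive SIgA. In these pools fewer cells of a type and less RNA per cell cannot be told apart.

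**Figure D1:**
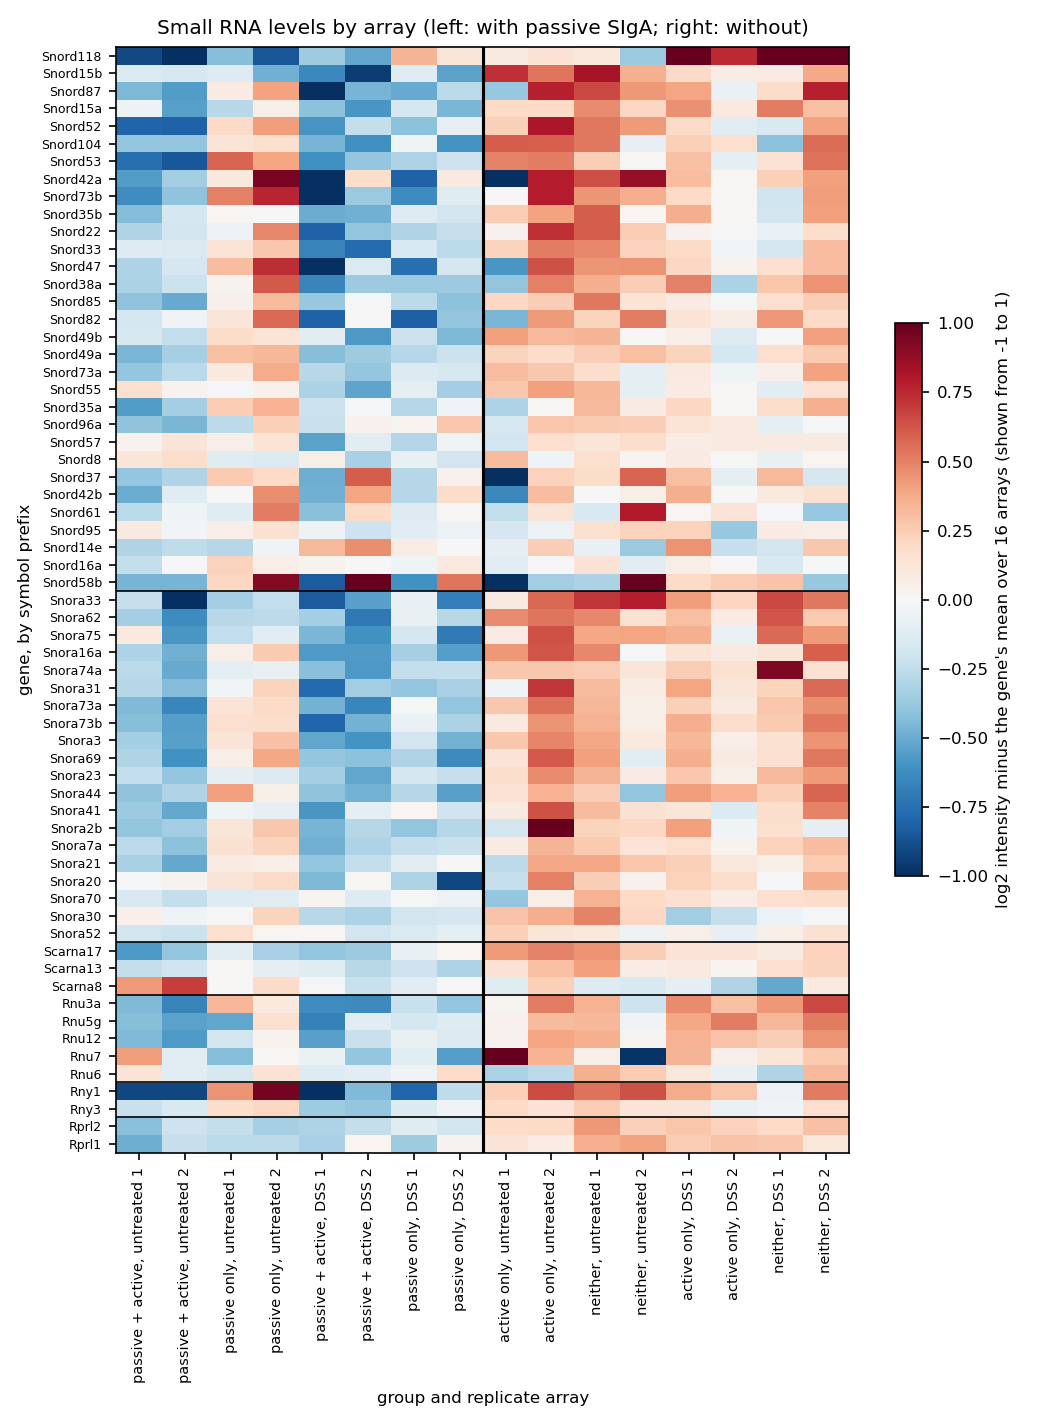
Log2 intensity of each of the 63 genes (rows, by symbol prefix and then by difference) on each of the 16 arrays (columns), shown as the difference from that gene's mean over all arrays, from -1 (blue) to 1 (red); values beyond are drawn at the limit. The 8 arrays left of the black line had passive SIgA and are mostly blue, and the 8 on the right are mostly red. The pair of untreated passive only arrays is the exception on the left, and on the right replicate 1 of untreated active only mice is mixed.

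Complete separation of the arrays was seen for 10 small RNAs. For Rprl1, Rprl2, Scarna13, Scarna17, Snora23, Snora33, Snora62, Snora74a, Snord15a and Snord15b, each of the 8 arrays without passive SIgA stood above each of the 8 with it. Of all genes 0.0752%, or 15 in number, showed this.

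Of the 31 Snord genes 8 were higher, with a median of 0.38, and 29 stood above 0. Snord118, the U8 RNA that is needed to process the large subunit ribosomal RNAs, had the largest difference of all 63. With passive SIgA its arrays ran from 9.76 to 11.82 (median 11.01) and without it from 11.11 to 12.85 (median 11.93), a difference of 1.08 ± 0.12 log2 (SE; limma adjusted p = 0.0023), or 2.11-fold. Those ranges overlap, and Snord118 also moved with DSS, but within each of the 4 matched pairs the arrays without passive SIgA were above those with it.

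Snord15a and Snord15b, which are related in sequence, both lie within Rps3, the gene of a small subunit ribosomal protein. Snord15b ran from 8.72 to 9.55 (median 9.35) with passive SIgA and from 9.74 to 10.49 (median 10.03) without, a difference of 0.79 ± 0.10 (adjusted p = 0.0036). Snord15a ran from 7.99 to 8.63 and from 8.67 to 9.08, a difference of 0.61 ± 0.09 (adjusted p = 0.0112). Neither gene had an array of one condition within the range of the other.

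The other Snord genes past the threshold overlapped between conditions. Snord53, in the gene of the ribosome assembly factor Wdr43, was at 10.64 to 12.07 (median 11.14) with and 11.39 to 12.03 (median 11.75) without passive SIgA (0.54 ± 0.08, adjusted p = 0.0099). Its 2 highest arrays with passive SIgA, 12.07 and 11.88, were both of untreated mice with passive SIgA only. Snord52 (0.58 ± 0.11), Snord33 (0.43 ± 0.08), Snord85 (0.40 ± 0.08) and Snord49a (0.36 ± 0.06) were higher at adjusted p-values of 0.0219 to 0.0309 by limma. Snord33, from the Rpl13a gene, is one of several nucleolar RNAs known for a role in lipid-induced cell stress. Snord35a, which also lies in Rpl13a, was not called (0.22 ± 0.08, limma adjusted p = 0.191). When single arrays were left out in turn, Snord52 lost its call in 8, Snord33 in 8, Snord85 in 9 and Snord49a in 5 of 16 omissions.

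In the Snora class 14 of 20 genes were higher, with a median of 0.54, and all 20 stood above 0. Snora33, within the ribosomal protein gene Rps12, ran from 8.64 to 9.59 (median 9.22) with passive SIgA and from 9.75 to 10.45 (median 10.22) without. The difference was 0.99 ± 0.12 (limma adjusted p = 0.0037), or 1.99-fold, and the ranges did not touch. Snora62, within the gene of the ribosomal protein Rpsa, ran from 6.90 to 7.54 and from 7.70 to 8.25 (0.73 ± 0.09, adjusted p = 0.0033). Snora23, within the gene of the nuclear import receptor Ipo7, ran from 10.25 to 10.67 and from 10.83 to 11.24 (0.53 ± 0.07, adjusted p = 0.0038). For all 3 every array without passive SIgA was the higher.

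Snora73a and Snora73b, the U17 RNAs, act in the cleavage that releases the small subunit RNA and both lie in Snhg3. Snora73a was at 11.06 to 11.90 (median 11.30) with and 11.77 to 12.26 (median 11.99) without passive SIgA. Snora73b was at 10.70 to 11.67 (median 11.13) and 11.56 to 12.02 (median 11.80). These near-identical RNAs may share signal. Their differences were both 0.57 ± 0.08 (adjusted p = 0.0068 and 0.0099), and in each gene the overlap came from the untreated passive only arrays.

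Snora16a (0.62 ± 0.09), Snora3 (0.56 ± 0.08) and Snora7a (0.39 ± 0.06) were higher as well, at adjusted p-values of 0.0082 to 0.0109 by limma. Snora7a lies in the ribosomal protein gene Rpl32 and Snora3 in Rpl27a. Their arrays overlapped between conditions.

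Among the small Cajal body RNAs, Scarna17 had the smallest p of all 63 genes and Scarna13 was higher too. Scarna17 ran from 10.73 to 11.32 (median 10.96) with passive SIgA and from 11.39 to 11.80 (median 11.54) without, a difference of 0.55 ± 0.06 (adjusted p = 0.0018). Scarna13 ran from 9.47 to 9.79 and from 9.81 to 10.19 (0.36 ± 0.06, adjusted p = 0.0206), and lost its call in 5 of 16 omissions of 1 array. Both sets of arrays were separate. Scarna8 went the other way without passing, at -0.24 ± 0.09 (adjusted p = 0.235), and its 2 highest arrays, 6.93 and 7.19, were those of untreated mice with passive and active SIgA.

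Of the 5 Rnu genes 3 were higher. Rnu3a, the U3 RNA of early ribosomal RNA cleavage, which is a box C/D RNA by structure, ran from 9.59 to 10.59 (median 9.84) with and from 10.05 to 10.92 (median 10.65) without passive SIgA (0.64 ± 0.10, adjusted p = 0.0099). Rnu12, of the minor spliceosome, ran from 7.85 to 8.45 (median 8.21) and from 8.44 to 8.86 (median 8.73), with 0.54 ± 0.08 (adjusted p = 0.0099). Rnu5g, a U5 gene of the major spliceosome, was at 0.60 ± 0.11 (adjusted p = 0.0265) and lost its call in 8 of 16 omissions. The arrays of Rnu12 overlapped only at 8.44 without against 8.45 with passive SIgA.

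The remaining Rnu genes did not pass. Rnu7, which trims histone messenger RNAs, was at 0.30 ± 0.16 (adjusted p = 0.379), with arrays spread from 3.54 to 5.53. Rnu6, the U6 RNA of the splicing centre, was at 0.02 ± 0.09 (adjusted p = 0.928), with arrays between 2.44 and 3.11. The lowest value of any probe set was 1.86 and the array medians were 6.68 to 6.83. Rnu6 thus lay near the floor, and its value does not show that U6 RNA was unchanged.

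Of the Y RNA genes Rny1 was called and Rny3 was not. The 6 Rny1 arrays with passive SIgA other than the untreated passive only pair ran from 9.66 to 10.69, that pair stood at 11.39 and 11.90, and the 8 arrays without ran from 10.88 to 11.59. The difference was 0.79 ± 0.14 (adjusted p = 0.0206), and the call was lost in 6 of 16 omissions. Rny3 was at 0.23 ± 0.06 without passing (adjusted p = 0.0699), with 13.46 to 14.05 against 13.78 to 14.10.

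Both Rprl genes were higher and their arrays were separate. Rprl2 ran from 9.72 to 10.02 (median 9.90) with passive SIgA and from 10.32 to 10.57 (median 10.37) without, a difference of 0.51 ± 0.05 (adjusted p = 0.0018). Rprl1 ran from 7.86 to 8.38 and from 8.42 to 8.75 (0.47 ± 0.07, adjusted p = 0.0140). They share sequence with each other and with the ribonuclease P RNA gene Rpph1, so part of their signals may be common.

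**Figure D2:**
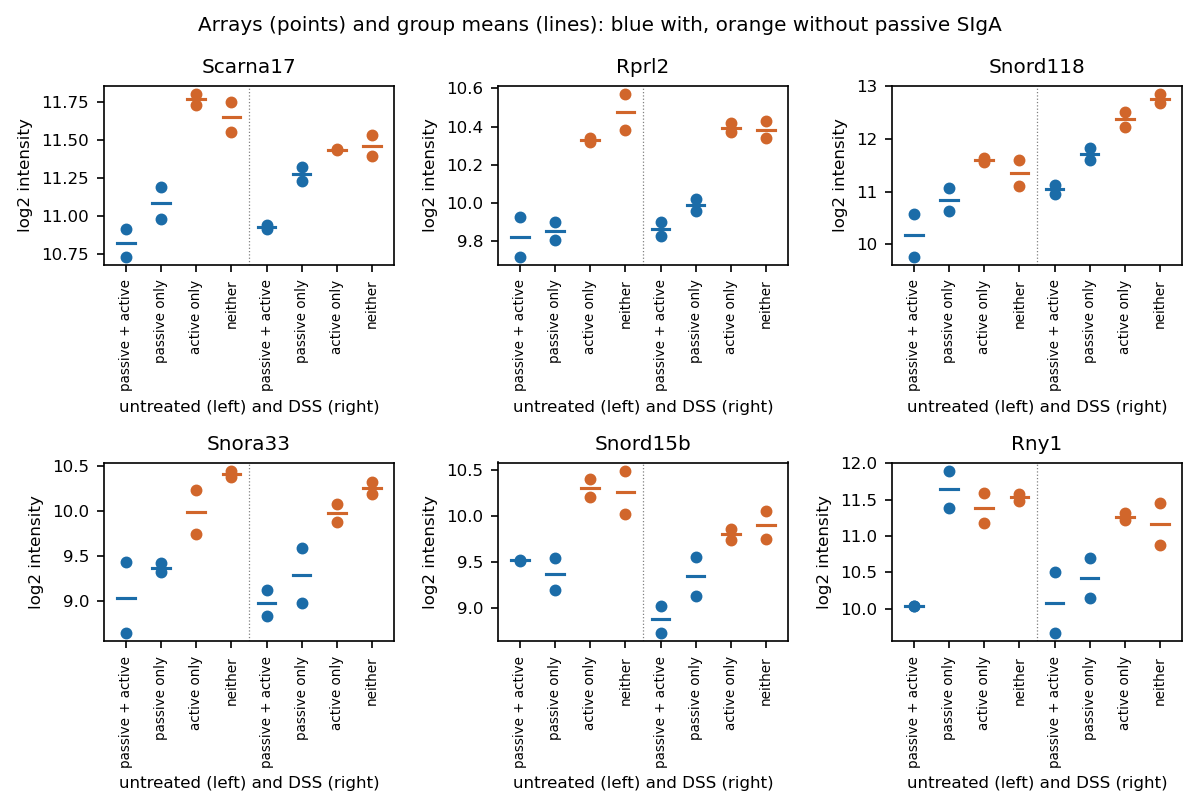
Log2 intensity of 6 genes, 1 per panel with its own vertical scale; points are single arrays, short lines are means of 2 arrays, blue is with and orange without passive SIgA, with untreated groups left and DSS groups right of the dotted line. Orange points lie above all blue points in Scarna17, Rprl2, Snora33 and Snord15b; Snord118 also stands higher after DSS, and in Rny1 the untreated passive only group reaches the orange level.

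As to limits, 3 of the 16 arrays moved the count of 30 by more than 1.5 times when left out alone: it was 19 without replicate 1 of untreated passive only mice, 18 without replicate 1 of untreated mice with neither, and 18 without replicate 2 of DSS-treated mice with neither. The spread behind each p is that between pools of different mice.

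Without both arrays of untreated mice with passive and active SIgA, and so with 3 matched pairs, the median over the 63 genes was 0.39 (all genes -0.00). By limma 43 of the 63 then had an unadjusted p under 0.05. With all arrays 51 of 63 did, as did 15.4% of all genes. The share of all genes was not counted without both of these arrays, so the 43 has no background to be compared with. At an adjusted p under 0.05 by limma 3 small RNAs were left, and they were all 3 genes called (0.015% of genes). Snora33 was then at 1.01 ± 0.12 (adjusted p = 0.0153), Snord118 at 0.96 ± 0.11 (adjusted p = 0.0153) and Rprl2 at 0.52 ± 0.06 (adjusted p = 0.0167). Scarna17 fell from 0.55 to 0.42 ± 0.07 (adjusted p = 0.0689) and Snord53 to 0.28, while Snord15b stayed at 0.79 ± 0.12 (adjusted p = 0.0639). With replicate 1 of untreated active only mice also left out, 6 small RNAs were called of 9 genes (0.0451%), each of them among the 30. The chemosensory and keratin-associated genes themselves had a median of -0.14 in the comparison with all arrays, with 56 of 1268 lower and 0 higher.

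Untreated and DSS-treated mice were also compared apart. In untreated mice (4 arrays against 4) 13 small RNAs were higher without passive SIgA and 0 lower, against 0.777% of all genes higher and 1.8% lower, and the median was 0.36 (all genes 0.03). The smallest p-values belonged to Scarna17 (0.76 ± 0.08, limma adjusted p = 0.00084), Rprl2 (0.56 ± 0.08, adjusted p = 0.0036), Snora62 (0.78 ± 0.12, adjusted p = 0.0058) and Snord15b (0.84 ± 0.14, adjusted p = 0.0071). Scarna17 stood at 10.73, 10.91, 10.98 and 11.19 with passive SIgA and at 11.55, 11.73, 11.75 and 11.80 without. Rprl2 stood at 9.72, 9.81, 9.90 and 9.93 and at 10.32, 10.34, 10.38 and 10.57. These sets of 4 arrays were well separated. In 12 of the 63 genes all 4 arrays without passive SIgA were above all 4 with it, as in 4.09% of all genes.

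The count of 13 fell to 7 without replicate 2 of untreated mice with passive and active SIgA, to 5 without either replicate of untreated passive only mice, and to 5 without replicate 1 of untreated mice with neither. With both arrays that stood apart left out it was 0, with 1 matched pair remaining.

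After DSS no gene of any kind passed in the fit used throughout. By limma 0 of 63 were called, as were 0% of all genes, with the smallest adjusted p of a small RNA at 0.0645. This count depended on the settings, with 16 of the 63 called with a trend in the variance, 12 with a replicate block, 10 without the dimmest genes and 2 with only the arrays compared. At an unadjusted p under 0.05 there were 47 small RNAs, all higher, against 3.95% of all genes. The median was 0.47 for the small RNAs and -0.01 for all genes. In 39 of the 63 genes all 4 DSS arrays without passive SIgA were above all 4 with it, as in 1.12% of all genes; they were 14 Snord, 16 Snora, 2 Scarna, 4 Rnu, 1 Rny and 2 Rprl genes. Snord118 was at 10.96, 11.13, 11.60 and 11.82 with and at 12.23, 12.52, 12.68 and 12.85 without passive SIgA, a difference of 1.19 log2 (adjusted p = 0.0645). Rnu3a was at 9.62, 9.64, 9.87 and 10.04 and at 10.56, 10.69, 10.73 and 10.92, a difference of 0.93 (adjusted p = 0.0645). In both genes the lowest array without passive SIgA was above the highest with it.

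Whether the passive difference itself changed with DSS was tested as an interaction. By limma 0 small RNAs passed (0.115% of all genes did), and 6 of 63 had an unadjusted p under 0.05, near the 8.14% of all genes. The test of the 2 differences against each other thus called none, which does not show that they were equal.

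**Figure D3:**
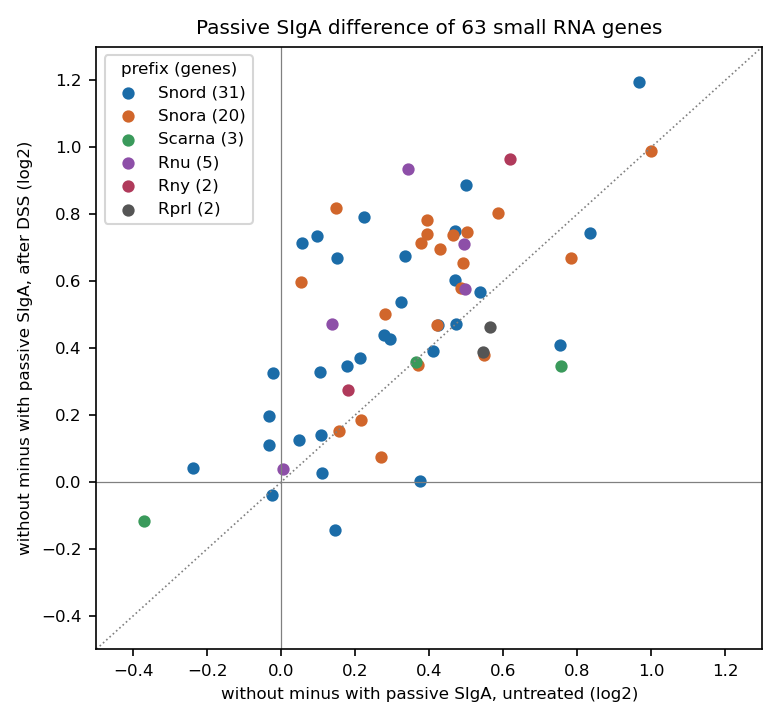
Difference without minus with passive SIgA (log2) in untreated mice (horizontal) and after DSS (vertical) for each of the 63 genes, coloured by symbol prefix; the dotted line marks equal differences. In untreated mice 57 points lie right of 0 and after DSS 60 lie above 0; Snord118 and Snora33 are farthest out.

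The 4 matched pairs were also taken one by one. In untreated mice with active SIgA 23 small RNAs were higher and 0 lower (1.57% and 3.84% of all genes), with a median of 0.57. Snord52 was at 7.35 and 7.36 with and 8.40 and 8.97 without passive SIgA, a difference of 1.33 ± 0.22 (limma adjusted p = 0.0032), and Snord53 at means of 10.69 ± 0.06 against 11.99 ± 0.01 (SD, n = 2), a difference of 1.30 ± 0.16 (adjusted p = 0.00042). Scarna17 (0.95 ± 0.12, adjusted p = 0.00042) and Snora73a (0.95 ± 0.16, adjusted p = 0.0032) were of the same pair. This pair holds the arrays that stood apart. Its count was 4 without replicate 2 and 11 without replicate 1 of the group with passive and active SIgA, and 12 without replicate 2 of the active only group, and it was 3 with only the arrays compared and 6 with array weights.

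In untreated mice without active SIgA limma called 0 of 63 (0% of all genes). At an unadjusted p under 0.05 there were 12 of 63, against 7.61% of all genes, and the median was 0.10. There 43 of 63 stood above 0. The lowest was Snord53 at -0.36, and the highest was Snora33 at 1.05, with arrays of 9.32 and 9.42 against 10.38 and 10.45. Rny1 (-0.12) and Snora73a (0.03) were near 0 in this pair and at 1.35 and 0.95 in the pair with active SIgA, whereas Rprl1 (0.64 and 0.46) and Rprl2 (0.62 and 0.51) had values of like size in both, but in the pair without active SIgA neither passed (limma adjusted p = 0.225 and 0.173) and in the other Rprl2 alone did (0.0185, against 0.0922 for Rprl1).

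After DSS the medians were 0.51 with active SIgA (61 of 63 above 0) and 0.45 without (56 of 63 above 0). Limma gave 0 calls in each (0% of all genes in each). At an unadjusted p under 0.05 there were 37 and 34 small RNAs, against 3.12% and 3.15% of all genes. The interaction of passive with active SIgA called 0 small RNAs by limma (0.0752% of all genes passed), and the smallest adjusted p was 0.0801. At an unadjusted p under 0.05 there were 18 of 63, against 7.9% of all genes. Each of the 18 had a smaller difference in mice without active SIgA. In untreated mice the medians were 0.57 with active SIgA, in the pair that holds the arrays that stood apart, and 0.10 without.

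RNA length and position were compared with the passive difference as a description. From RefSeq annotation the 63 RNAs are 45 to 275 nucleotides long, with a median of 105. Of 33 genes of at least 100 nucleotides 24 were higher without passive SIgA, with a median of 0.54, and of 30 shorter genes 6, with a median of 0.34. The longer genes also had the smaller median standard error (0.0898 against 0.105 log2). Most Snora genes (median 0.54) are among the longer and most Snord genes (median 0.38) among the shorter. Length and RNA class thus cannot be told apart here. Longer genes annotated over them span 54 of the 63, of which 24 were higher (median 0.42). Of the 9 with no such gene (Rnu12, Rnu3a, Rnu6, Rnu7, Rny1, Rny3, Rprl1, Rprl2 and Snord118) 6 were higher (median 0.51).

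The genes that span small RNAs were compared with them. For 28 small RNAs the spanning gene had a probe set of its own, 24 genes in all, and 27 of the 28 had a larger passive difference than that gene. The spanning genes had a median of 0.00, ran from -0.26 to 0.15, and 0 of 24 were called by limma, where 10 of their 28 small RNAs were. Of the 24, 2 had an unadjusted p under 0.05, against 15.4% of all genes. In untreated mice with active SIgA alone, the pair that holds the arrays that stood apart, the spanning genes ran from -0.62 to 0.96, with 1 called higher and 3 lower. In untreated mice Gas5 was at 0.57 and Snord47, which it spans, at 0.10. Rps3 was at 0.01 ± 0.07 beside 0.61 and 0.79 for Snord15a and Snord15b. Rpsa was at 0.01 ± 0.07 beside 0.73 for Snora62, and Rps12 at 0.09 ± 0.08 beside 0.99 for Snora33. Strand was not used in matching small RNAs to spanning genes.

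**Figure D4:**
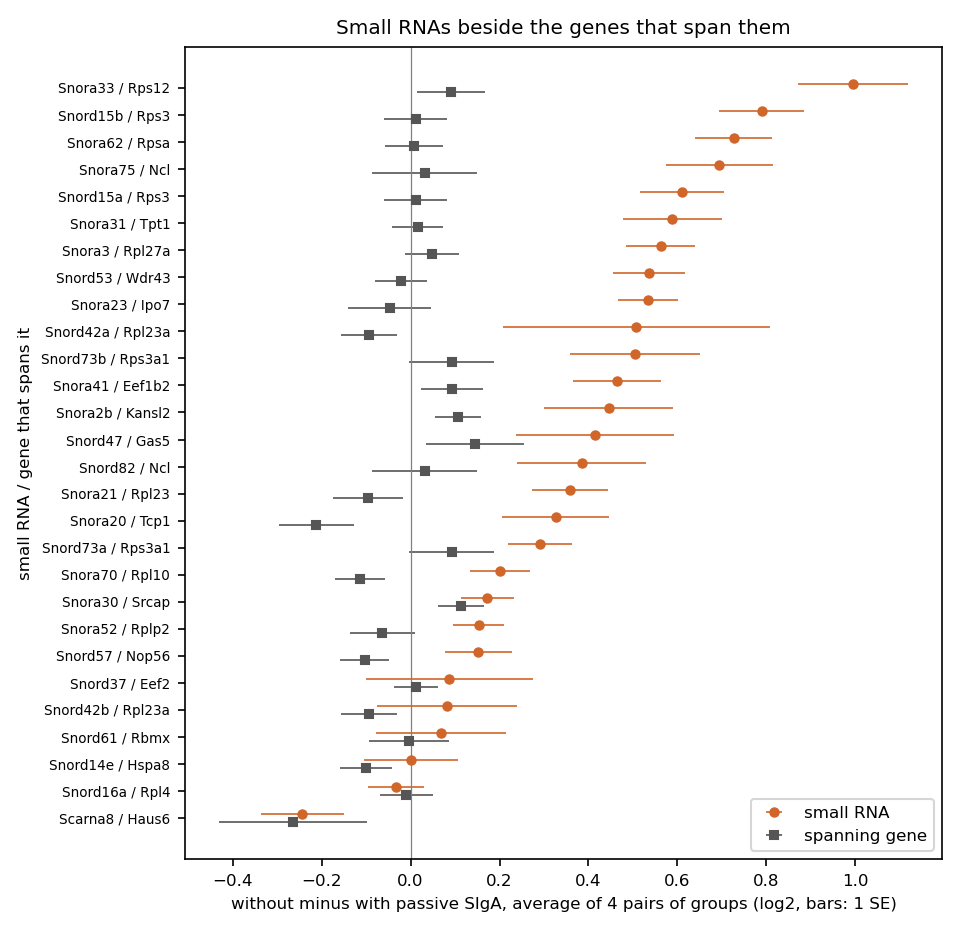
Difference without minus with passive SIgA (log2, average of 4 matched pairs; bars are 1 SE) for 28 small RNAs (orange circles) and for the gene that spans each (grey squares), in order of the small RNA. The squares stay between -0.26 and 0.15 while the circles reach 0.99; Scarna8 and Haus6, the lowest pair, lie together.

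There were 3 spanning genes that held a pair of small RNAs past the threshold: Rps3 with Snord15a and Snord15b, Snhg12 with Snora16a and Snora44, and Snhg3 with Snora73a and Snora73b. The RNAs of each pair lie in 1 annotated gene, and the 250 bases before the start of that gene are shown for this reason. They are from RefSeq on GRCm38.p6, in the direction of the gene, at chr7:99483710-99483959 (minus strand) for Rps3, chr4:132308428-132308677 (plus strand) for Snhg12 and chr4:132353687-132353936 (minus strand) for Snhg3. Capitals mark the letters of a motif that was searched for.
Rps3: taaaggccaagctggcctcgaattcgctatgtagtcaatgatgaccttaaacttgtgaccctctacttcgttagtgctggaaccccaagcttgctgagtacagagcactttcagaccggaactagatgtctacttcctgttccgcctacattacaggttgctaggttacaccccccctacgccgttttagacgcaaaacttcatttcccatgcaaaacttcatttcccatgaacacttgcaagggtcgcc
Snhg12: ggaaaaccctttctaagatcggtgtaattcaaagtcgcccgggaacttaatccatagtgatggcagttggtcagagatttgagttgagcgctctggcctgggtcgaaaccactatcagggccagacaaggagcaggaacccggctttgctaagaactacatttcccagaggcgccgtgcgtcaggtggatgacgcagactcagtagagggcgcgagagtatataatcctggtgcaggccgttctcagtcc
Snhg3: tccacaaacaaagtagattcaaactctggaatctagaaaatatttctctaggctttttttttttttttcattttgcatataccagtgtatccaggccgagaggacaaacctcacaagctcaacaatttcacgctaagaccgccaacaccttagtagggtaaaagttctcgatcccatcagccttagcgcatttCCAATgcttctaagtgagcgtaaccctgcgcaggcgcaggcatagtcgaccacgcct
The motif TATAAA was searched on both strands of these windows, as was CCAAT. The other motifs searched were CACGTG (the E-box) and, for Sp1-type factors, the string GGGCGG. The single match was CCAAT in Snhg3, with its first base 57 bases before the start. Over 32851 mouse promoter windows of that length 33.8% held CCAAT, 12.4% TATAAA, 6.0% CACGTG and 32.7% GGGCGG.

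The proteins that bind, build and trim these RNAs were measured as well. In the passive comparison limma called 0 of 5 box C/D proteins, 0 of 5 box H/ACA proteins, 0 of 17 assembly and Cajal body genes, 0 of 20 genes of U RNA transcription and end processing, 0 of 23 spliceosomal proteins, 0 of 12 Y RNA and ribonuclease P proteins and 0 of 18 trimming and decay genes. At an unadjusted p under 0.05 these lists had 1, 2, 3, 6, 5, 3 and 1 genes, where 15.4% of all genes were under 0.05. Snu13, which binds the box C/D fold, was at -0.20 ± 0.06 (adjusted p = 0.107), Naf1, an assembly factor of box H/ACA particles, at -0.30 ± 0.08 and Rpp30, a ribonuclease P protein, at -0.31 ± 0.07 (adjusted p = 0.0649). The medians of all 7 lists lay below 0, between -0.13 and -0.02. These values are all of the average of 4 pairs. In untreated mice alone 1 box H/ACA gene was lower, and of the spliceosomal proteins 1 was higher and 1 lower. Of all genes 0.777% were higher there and 1.8% lower. In untreated mice with active SIgA, the pair that holds the arrays that stood apart, 3 spliceosomal proteins were higher and 0 lower (1.57% and 3.84% of all genes).

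Other noncoding RNAs were set beside the small RNAs. Of 291 microRNA hairpin genes 3 were higher without passive SIgA (Mir15a, Mir222 and Mir3068), with a median of 0.06. Of 7 further small RNA genes, picked after the values of the 63 were seen, limma called 1: Terc, the telomerase RNA, which carries a box H/ACA end, at 0.32 ± 0.07 (adjusted p = 0.0465). Rmrp, of the ribosomal RNA processing enzyme RNase MRP, was at 0.32 ± 0.08 (adjusted p = 0.0670), Rpph1, of ribonuclease P, at 0.25 ± 0.06 (adjusted p = 0.0719), and Rn7sk, which restrains transcription elongation, at 0.04. Of 8 longer noncoding genes listed by symbol (Snhg genes, Gas5, Rian and Meg3) 2 were higher by limma. They were Snhg17 at 0.58 ± 0.09 (adjusted p = 0.0140) and Meg3 at 0.45 ± 0.09 (adjusted p = 0.0343). Neither was matched as the spanning gene of any of the 63. The 60 ribosomal protein genes had a median of 0.01, with 0 called and 6 at an unadjusted p under 0.05, against 15.4% of all genes.

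DSS was compared as an average of 4 matched pairs (8 treated and 8 untreated arrays). Snord118 alone of the 63 was called higher, where 6.4% of all genes were. The 5 of 63 called lower were near the share of all genes, 6.73%. At an unadjusted p under 0.05 by limma there were 17 of 63, against 26.5% of all genes. The median was -0.12 for the small RNAs and -0.00 for all genes. Snord118 stood at 10.58 and 9.76 without DSS and 11.13 and 10.96 with it in mice with passive and active SIgA. In passive only mice it was at 11.06 and 10.63 untreated and at 11.82 and 11.60 with DSS, in active only mice at 11.57 and 11.63 and at 12.52 and 12.23, and in mice with neither at 11.59 and 11.11 and at 12.85 and 12.68. In each of the 4 pairs both DSS arrays were the higher. The difference was 0.98 ± 0.12 log2 (limma adjusted p = 0.00013), or 1.98-fold.

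The lower genes were Snora30 (-0.40 ± 0.06, limma adjusted p = 0.00061), Snord33 (-0.39 ± 0.08, adjusted p = 0.0056), Snord15b (-0.38 ± 0.10, adjusted p = 0.0194), Snord55 (-0.29 ± 0.08, adjusted p = 0.0228) and Snord22 (-0.39 ± 0.11, adjusted p = 0.0365). Snora30 ran from 7.65 to 8.18 untreated and from 7.34 to 7.67 with DSS. Only its lowest untreated array lay within the range of the DSS arrays. Snora30 was at 0.17 ± 0.06 in the passive comparison without passing (adjusted p = 0.186). Snord15b and Snord33 were both lower with DSS and higher without passive SIgA. The count of 5 lower was 1 without both arrays that stood apart, and 2 to 11 when single arrays were left out, so that Snord55 lost its call in 7 and Snord15b in 4 of 16 omissions, while Snora30 and Snord118 kept theirs in all 16.

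Leukocyte markers moved with DSS in the same arrays: 6 of 9 were higher with 0 lower, with a mean level of 6.12 to 6.40 on untreated and 6.49 to 6.86 on DSS arrays. Their part in the DSS differences was not tested. In the passive comparison limma called 0 of 9, and their median was 0.01. Of the proteins, 4 of 5 box H/ACA genes rose with DSS: Dkc1, the pseudouridine synthase itself (0.43 ± 0.12), Nhp2 (0.37 ± 0.07), Nop10 (0.34 ± 0.07) and Gar1 (0.32 ± 0.09), at adjusted p-values of 0.0037 to 0.0300. Of 5 box C/D proteins Rrp9, which binds U3 RNA, rose (0.27 ± 0.06, adjusted p = 0.0095). The methyltransferase Fbl was at 0.16 ± 0.09 (adjusted p = 0.306). The other protein lists also held genes called higher with DSS. They were 5 of 18 trimming and decay genes, 4 of 23 spliceosomal proteins, 2 of 17 assembly and Cajal body genes and 1 of 12 Y RNA and ribonuclease P proteins. Of 20 genes of U RNA transcription and end processing 0 were called, and 6.4% of all genes were higher.

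Active SIgA gave 1 call. Snord49a was higher in mice without active SIgA (0.28 ± 0.06, limma adjusted p = 0.0491), where 0.0903% of all genes were higher, and 0 small RNAs were lower, where 1.28% of all genes were. The median over the 63 was 0.17 (all genes -0.01), with 57 above 0 (9591 of 19938 for all genes). At an unadjusted p under 0.05 there were 24 of the 63, against 18.1% of all genes. Snord49a had a mean of 8.99 ± 0.02 (SD, n = 2) in untreated passive only mice and stood at 8.21 to 8.33 in the other untreated mice with passive SIgA, while all groups without passive SIgA stood at 8.49 to 8.97. The call ended in both settings without the arrays that stood apart, in 5 of 9 other settings and in 13 of 16 omissions of 1 array, where the number of small RNAs called ran from 0 to 11.

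Within groups the small RNAs varied together. In untreated active only mice 51 of 63 were higher on replicate 2, and in DSS-treated active only mice 6 of 63 were. The median of replicate 2 minus replicate 1 was 0.28 and -0.17 log2 there (all genes -0.09 and 0.01). In mice with neither, 14 of 63 were higher on replicate 2 when untreated and 50 of 63 after DSS. Their medians were -0.20 and 0.17 (all genes -0.03 and 0.03). In the 4 groups with passive SIgA the number higher on replicate 2 lay between 26 and 46. Over deviations of the 16 arrays from their group means, pairs of the 63 genes had a median correlation of 0.34. The correlation was not computed for other genes, so it is not shown to be particular to these RNAs. These values share arrays and normalization and are a description.

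Likeness of pattern was measured for Scarna17 by Pearson correlation over the 8 group means. Among genes outside the 63 the nearest were Sptbn5 (0.99), Zfp646 (0.98) and Mcat (0.97), whose passive differences of 0.21, 0.13 and 0.11 were all smaller than that of Scarna17 and did not pass. Among the 63 the nearest were Snora62 (0.95), Snora41 (0.93) and Snord35b (0.91).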

How the data were processed

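Per the labels' protocols, RNA of isolated colonic epithelial cells that met an integrity threshold was pooled in equal amounts and hybridised as separate pools of different mice. The deposited values are log2 intensities that the authors made with RMA, per the submitters' processing notes; its version was not stated in the labels or file headers. The array number limits the precision. The 21789 of 35557 probe sets annotated to 1 gene were used, not the 1621 annotated to several or the 12147 to none. A gene was represented by its brightest probe set on average, giving 19938 genes. Of the 63 genes described, 6 had more than 1 probe set. All 63 symbols were found in the RefSeq table, which gave lengths and spanning genes (the shortest longer gene that contains the RNA, strand aside).

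With limma 3.58.1 in R 4.3.3 a mean was fitted for each of 8 groups, with contrasts, moderated tests (8 residual and 5.03 prior degrees of freedom) and two-sided p-values adjusted by Benjamini-Hochberg over all 19938 genes. SIgA differences are without minus with, and DSS differences DSS minus untreated. The fit was tested on simulated data. Alternatives were a variance trend, array weights, a replicate block, median centring, quantile normalization, a filter on dim genes, all probe sets, a looser threshold, additive or restricted fits, and leaving out arrays.

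The members and lists were chosen with earlier results of these data known. Named were all Rnu, Rny, Rprl and Scarna genes, up to 8 called Snord and 8 called Snora genes with the smallest p in the passive average, and up to 4 called genes in each direction in each other comparison. Of each protein list up to 4 genes with the smallest p could be named. Genes named beside counts, as extremes or beside their spanning genes, and in the DSS account of proteins, were chosen after their values were seen.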

Additional observations from a re-analysis of the deposited data

How the results depend on the processing

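Of the 24 small RNAs named as higher without passive SIgA, 0 changed sign in any alternative, 17 kept their call in each omission of 1 array, 15 of these also in each other setting, and 3 (Rprl2, Snora33 and Snord118) also without the arrays that stood apart. The count of 30 was 19 in an additive fit, 3 without both arrays of untreated mice with passive and active SIgA, 6 without these and a further array, and 18 to 35 when 1 array was left out. The labels do not say whether replicate numbers pair samples between groups. Correlations of replicate differences between groups ran from -0.30 to 0.67, with 14 of 28 over 0.1, and do not settle it. With a replicate block the count was 35, the untreated count 17 and the DSS count 12 (1 in the pair with active SIgA). Active SIgA then had 5 higher and DSS 8 lower, and other small RNA counts stayed within 1.5 times.

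For passive SIgA after DSS the 0 calls became 16 with a variance trend, 2 with median centring, 10 without the dimmest 30% of genes, 12 at an adjusted p under 0.1, 2 with only the arrays compared, 0 to 3 with 1 array left out, and 1 and 3 without the 2 and 3 arrays that stood apart. In untreated mice the 13 became 20 with a trend, 22 at an adjusted p under 0.1, 7 with only the arrays compared, 5 to 18 with 1 array left out and 0 in both settings without the arrays that stood apart. For untreated mice with active SIgA the 23 became 6 with array weights, 14 with centring, 15 without the dimmest genes, 35 at an adjusted p under 0.1, 3 with only the arrays compared and 4 to 25 with 1 array left out, and quantile normalization gave 1 lower. In those without active SIgA a trend gave 1 higher, and the passive by active interaction had 1 lower at an adjusted p under 0.1. For active SIgA the 1 became 3 with a trend, 4 at an adjusted p under 0.1, 0 with array weights, quantile normalization, without the dimmest genes, in the additive fit and in both settings without the arrays that stood apart, and 0 to 11 with 1 array left out.

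For DSS the 1 higher became 2 with all probe sets and at an adjusted p under 0.1, and was 1 to 2 with 1 array left out. The 5 lower became 11 with a trend, 9 with centring, 8 with quantile normalization, 8 without the dimmest genes, 12 at an adjusted p under 0.1, 1 without both arrays that stood apart and 2 to 11 with 1 array left out. Rnu6, which was not called, turned sign to -0.0086 with centring, and ran from -0.055 to 0.099 with 1 array left out, below 0 in 5 of 16 omissions. Fits of only the arrays compared were not run for the interactions. The causes were not tested. With 1 array left out, the lone array of its group was assumed to vary like the others.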
